A study of Mus musculus with 14 samples.

Results

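Naive T cells keep themselves quiescent, long-lived and recirculating through a small set of transcription factors and the receptors those factors maintain. The 8 genes described here are Tcf7, Lef1, Klf2, Bach2, Satb1 and Foxp1, which encode transcriptional regulators of the naive state, Ccr7, which encodes the chemokine receptor for entry into lymph nodes, and Cdkn1b, which encodes the cell-cycle inhibitor p27. They were chosen by name, as the rows with these symbols in both deposited tables of normalized counts. The choice was made with earlier results of these data known, so counts of members beside all genes below are description only. Of the 8 genes, 8 were found among 15036 genes listed in either table and 12539 listed in both. The questions were whether the genotype changed their levels after activation, and whether that change took another size or sign when IFN-beta was present.

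The cells were CD8 T cells from the spleens of C57BL/6 mice, sorted for high CD62L and low CD44 and then activated in culture for 6 h. Every culture received plate-bound anti-CD3 at 1 µg/mL and soluble anti-CD28 at 1 µg/mL, which stand in for antigen and costimulation. The 4 groups were cells labelled Morrbid-/- with 20 ng/mL IFN-beta (n = 4), wild-type cells with the same IFN-beta (n = 4), cells labelled Morrbid-/- without IFN-beta (n = 3) and wild-type cells without it (n = 3). No group was left unactivated, so no level below is that of a resting cell. Morrbid is a long noncoding RNA gene near Bcl2l11, the gene of the pro-apoptotic protein BIM. Nothing in the labels says whether libraries of a group came from separate animals, so every p-value reflects the spread between libraries alone, and that spread may be technical.

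As background, resting T cells hold the transcription factor FOXO1 in the nucleus, where it maintains KLF2, and KLF2 in turn maintains the egress receptor gene S1pr1. TCF-1 and LEF-1, the products of Tcf7 and Lef1, are related DNA-binding proteins that act with beta-catenin or with Groucho-family corepressors and preserve naive and memory identity. BACH2 restrains effector genes driven by AP-1 factors, SATB1 organizes chromatin in thymocytes and naive T cells, and FOXP1 holds naive T cells in quiescence. Antigen receptor signalling lowers many of these transcripts over time, as FOXO1 leaves the nucleus and cells begin to grow.

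Recovered reads per library ranged from 7132515 to 7355337 in the group labelled Morrbid-/- and from 5788070 to 6918633 in wild type with IFN-beta. Without IFN-beta they ranged from 1747634 to 2443158 in the group labelled Morrbid-/- and from 2360619 to 2963149 in wild type. Between 438 and 8631 reads lay behind each value of the 8 genes with IFN-beta, and between 235 and 2948 without it. For Ccr7 and Klf2 without IFN-beta, counting error was of about the size of the spread between libraries. Morrbid itself, without IFN-beta, had 7, 4 and 7 reads in libraries labelled Morrbid-/- and 2, 4 and 2 reads in wild type. Its reads were no fewer under the Morrbid-/- label than in wild type, so each direction below rests on the label alone. All 6 CD8 T cell markers were present, with a summed level of 7266 to 8291 normalized counts in libraries labelled Morrbid-/- and 7819 to 8361 in wild type with IFN-beta. Of the B cell, myeloid, NK and CD4 T cell markers, the summed levels stayed at or under 28.4 normalized counts in every library of either table. These are bulk samples, so fewer cells of a type and less RNA per cell cannot be told apart.

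The 8 genes lie on 6 autosomes of the mouse genome (GRCm38.p6, RefSeq). Tcf7 is at chr11:52246527-52283383 on the minus strand, Lef1 at chr3:131110297-131224357 on the plus strand and Ccr7 at chr11:99144199-99155077 on the minus strand. Klf2 is at chr8:72319062-72321654 on the plus strand and Bach2 at chr4:32238413-32586109 on the plus strand. Satb1 is at chr17:51736187-51833290 on the minus strand, Foxp1 at chr6:98925342-99522746 on the minus strand and Cdkn1b at chr6:134920401-134925525 on the plus strand. No stretch of 75 exonic bases, the read length, was shared between Tcf7, Ccr7, Klf2 or Cdkn1b and any other annotated gene. In Lef1, 12.7% of such stretches lay opposite the antisense gene Gm43352, which neither table lists, and in Bach2 3.99% lay opposite Bach2os. The sources used here do not give the strand setting of the counting, so antisense reads in those stretches of Lef1 and Bach2 cannot be told apart from the genes' own.

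Promoter sequences are shown for Tcf7, Lef1 and Cdkn1b, the members whose genotype effect differed between the stimulations. For Tcf7 and Lef1 the source held further windows, which are not shown. Another Tcf7 window, of a start upstream at chr11:52283014, holds the KLF letters but not the FOXO letters. Each run ends 8 bases into the transcript, reads 5′ to 3′ on the gene's strand and comes from RefSeq windows of GRCm38.p6. Capitals mark the letters GTAAACA, a FOXO core, and CACCC, a KLF core, on either strand (TGTTTAC and GGGTG on the other). The Tcf7 run (124 bases) lies at chr11:52282588-52282711 on the minus strand and is cut short at an annotated untranslated stretch upstream of this start. Those of Lef1 (chr3:131110047-131110304) and Cdkn1b (chr6:134920151-134920408), both 258 bases, are on the plus strand.
Tcf7: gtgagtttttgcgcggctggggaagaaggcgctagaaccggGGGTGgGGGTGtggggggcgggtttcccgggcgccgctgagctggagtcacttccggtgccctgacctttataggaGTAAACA
Lef1: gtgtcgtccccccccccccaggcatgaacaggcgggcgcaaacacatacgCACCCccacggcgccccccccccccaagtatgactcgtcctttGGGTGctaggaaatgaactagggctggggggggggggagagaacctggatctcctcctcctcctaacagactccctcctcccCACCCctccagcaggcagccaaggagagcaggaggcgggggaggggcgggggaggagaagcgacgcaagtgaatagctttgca
Cdkn1b: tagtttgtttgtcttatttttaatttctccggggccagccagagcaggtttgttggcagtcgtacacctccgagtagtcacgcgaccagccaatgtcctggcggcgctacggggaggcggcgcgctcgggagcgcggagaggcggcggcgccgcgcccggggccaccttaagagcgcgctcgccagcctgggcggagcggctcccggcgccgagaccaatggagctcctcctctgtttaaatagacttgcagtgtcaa
The table held 17 windows, each 250 bases before and 50 after a start, for 7 of the members. The FOXO letters were in 1 of them, that of Tcf7 shown here, where they begin at base 2 of the transcript, against 3.65% of all 32851 windows. CACCC was in 13 of the 17 windows, belonging to Tcf7, Lef1, Klf2, Satb1 and Foxp1, against 57.5% of all windows. Some windows of a gene overlap, as those of Lef1 at starts chr3:131110297 and chr3:131110323, so the same site can count more than once. The TCF/LEF letters ATCAAAG and those of the interferon-stimulated response element were in none of the 17, against 3.73% and 3.44% of all windows. The gamma-activated letters TTCNNNGAA were in 1 window, that of Bach2, against 8.3%. These matches describe letters only.

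With IFN-beta, 6 of the 8 genes were higher in the cells labelled Morrbid-/- and none was lower. The largest changes were those of Lef1, Ccr7 and Tcf7, each between 1.33-fold and 1.43-fold on the fitted scale, and for these alone every library labelled Morrbid-/- lay above every wild-type library. Cdkn1b, Klf2 and Satb1 rose by less and their groups overlapped, while Bach2 and Foxp1 did not pass the test. In this comparison limma called 10.1% of 9964 genes at an adjusted p under 0.05, 5.25% higher and 4.84% lower. Scaled to equal totals instead, 68% of the calls were higher, against 52% here, and the same count of 6 members was higher. The median log2 change was 0.29 over the 8 genes and 0.00 over all genes tested.

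Among the high-mobility-group factors, Tcf7 had 3401, 3370, 3826 and 3930 normalized counts in libraries labelled Morrbid-/- with IFN-beta, against 2590, 2876, 2904 and 2525 in wild type. The lowest library labelled Morrbid-/- was thus well above the highest wild-type library. Tcf7 was 1.33-fold higher (log2 change 0.41, SE 0.06, limma adjusted p = 1.05e-04). Lef1 had 2549, 2677, 2430 and 3294 normalized counts in libraries labelled Morrbid-/- with IFN-beta, against 1733, 1873, 1875 and 2115 in wild type. Its groups did not overlap either, with replicate 4 labelled Morrbid-/- highest by far. Lef1 was 1.43-fold higher (log2 change 0.52, SE 0.08, limma adjusted p = 7.59e-05).

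Ccr7, whose product guides naive T cells into lymph nodes, had 874, 690, 796 and 847 normalized counts in libraries labelled Morrbid-/- with IFN-beta, against 517, 589, 521 and 621 in wild type. Replicate 2 labelled Morrbid-/- came closest to wild type and still lay above all 4 of its libraries. Ccr7 was 1.42-fold higher (log2 change 0.51, SE 0.08, limma adjusted p = 1.68e-04). Across all 9964 genes, the libraries labelled Morrbid-/- lay wholly above wild type for 7.58% of genes and did not overlap in either direction for 15.2%, which is the background for the 3 members above. Dendritic cells also express Ccr7, and 1 marker listed for them, Zbtb46, moved with it. Zbtb46 had 51.3, 49.5, 43.1 and 44.7 normalized counts in libraries labelled Morrbid-/-, against 9.44, 6.14, 25.7 and 16.6 in wild type. The other 4 dendritic cell markers were not listed with IFN-beta, and the part of such cells in the Ccr7 result was not tested. Without IFN-beta 3 of the 5 were listed, at a summed 26.4 to 32.8 in libraries labelled Morrbid-/- and 17.0 to 22.9 in wild type.

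Klf2, which maintains recirculation and quiescence, had 1075, 1010, 980 and 938 normalized counts in libraries labelled Morrbid-/- with IFN-beta, against 749, 773, 910 and 939 in wild type. The groups touched at replicate 4 of either genotype. Klf2 was higher by 0.25 on the log2 scale (SE 0.08, limma adjusted p = 0.0337). The call was lost without replicate 1, 2 or 3 labelled Morrbid-/- (adjusted p = 0.104, 0.0907 and 0.0624) and without wild-type replicate 1 or 2 (0.133 and 0.122).

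Among the chromatin regulators and repressors, Satb1 had 7901, 7819, 6840 and 7874 normalized counts in libraries labelled Morrbid-/- with IFN-beta, against 6204, 7092, 6945 and 6396 in wild type. Replicate 3 labelled Morrbid-/- lay inside the wild-type range and the other 3 lay above it. Satb1 was higher by 0.19 on the log2 scale (SE 0.06, limma adjusted p = 0.0387). This call was lost without replicate 1, 2 or 4 labelled Morrbid-/- (adjusted p = 0.103, 0.118 and 0.077) and without wild-type replicate 1 or 4 (0.139 and 0.0826).

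Bach2 averaged 2697 ± 101 normalized counts in libraries labelled Morrbid-/- with IFN-beta and 2546 ± 337 in wild type (SD, n = 4 each). The wild-type range, 2276 to 2979, held every library labelled Morrbid-/-, from 2554 to 2784. Foxp1 averaged 4017 ± 246 normalized counts in libraries labelled Morrbid-/- and 4047 ± 220 in wild type. The log2 change was 0.09 for Bach2 (limma adjusted p = 0.469, 95% interval -0.06 to 0.24) and -0.01 for Foxp1 (adjusted p = 0.935, 95% interval -0.13 to 0.11). For Foxp1 this interval leaves out changes as large as those of Tcf7, Lef1 and Ccr7.

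Cdkn1b, whose product p27 blocks cyclin-dependent kinase 2, had 673, 853, 915 and 999 normalized counts in libraries labelled Morrbid-/- with IFN-beta, against 666, 775, 611 and 681 in wild type. Replicate 1 labelled Morrbid-/- sat among the wild-type libraries and the other 3 lay above them. Cdkn1b was higher by 0.32 on the log2 scale (SE 0.09, limma adjusted p = 0.0301). The call was lost without replicate 2, 3 or 4 labelled Morrbid-/- (adjusted p = 0.0775, 0.0945 and 0.104) and without wild-type replicate 1 or 3 (0.08 and 0.0874).

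**Figure D1:**
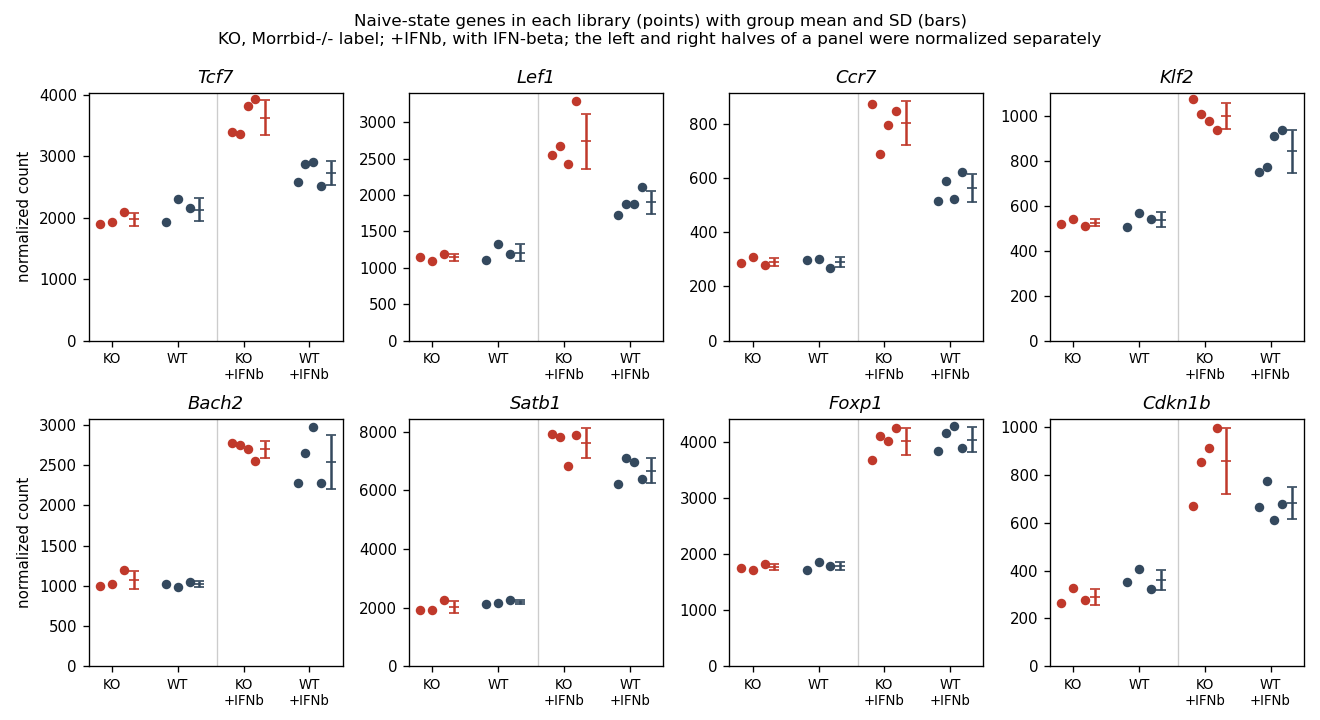
Normalized counts (y axes, linear, from 0) of each of the 8 genes by group, with 1 point per library and the group mean ± SD beside the points. With IFN-beta the red points (labelled Morrbid-/-) of Tcf7, Lef1 and Ccr7 all lie above the dark points (wild type), and without it the groups of all 8 genes overlap. The 2 stimulations were normalized separately, so their levels are not to be compared.

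The share of reads from mitochondrial 12S ribosomal RNA also moved with the label in the IFN-beta cultures. It was 0.214%, 0.326%, 0.259% and 0.462% in libraries labelled Morrbid-/-, against 0.152%, 0.142%, 0.142% and 0.256% in wild type. Replicate 4 labelled Morrbid-/-, the highest library with IFN-beta for Tcf7, Lef1 and Cdkn1b, was also the highest for this share. With the 12S share as a covariate, chosen after seeing the data, Tcf7, Lef1 and Ccr7 were still called, with Lef1 at a log2 change of 0.28 (adjusted p = 0.026). Under that covariate Klf2 had a log2 change of 0.27 (adjusted p = 0.135), Satb1 of 0.18 (adjusted p = 0.202) and Cdkn1b of 0.12 (adjusted p = 0.657).

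Early activation genes varied between libraries of the group labelled Morrbid-/-. Irf4, an early target of antigen receptor signalling whose level follows its strength, had 1673, 1535, 1061 and 657 normalized counts in libraries labelled Morrbid-/- with IFN-beta, against 2211, 1547, 1450 and 1550 in wild type. Replicates 1 and 2 labelled Morrbid-/- lay within the wild-type range of Irf4, and replicates 3 and 4 lay below it. Irf4 did not pass the test (log2 change -0.53, limma adjusted p = 0.0631), and its part in the results of the 8 genes was not tested. Without IFN-beta Irf4 was at 0.36 (limma adjusted p = 0.54). Irf4 does not stand for its list. Of 15 measured early activation genes 2 rose with IFN-beta and 0 fell, with a median log2 change of 0.13.

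Without IFN-beta, limma called none of the 8 genes in either direction, and neither edgeR nor DESeq2 on the recovered reads called any. In this comparison limma called 0.635% of 9290 genes, 0.538% higher and 0.0969% lower. At an unadjusted p under 0.05 the count was 1 of 8, Cdkn1b, which was lower in the libraries labelled Morrbid-/-. Over all genes tested, 567 of 9290 had such a p. The groups of all 8 genes overlapped, while 10.9% of the 9290 genes did not overlap. The median log2 change of the 8 genes was -0.06, against -0.01 over all genes tested.

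Tcf7 had 1896, 1937 and 2094 normalized counts in libraries labelled Morrbid-/- without IFN-beta, against 1931, 2311 and 2161 in wild type. Lef1 had 1143, 1095 and 1190 in libraries labelled Morrbid-/-, against 1104, 1334 and 1192 in wild type. For both genes the libraries labelled Morrbid-/- lay at or below the middle of the wild-type range, with log2 changes of -0.11 (95% interval -0.31 to 0.10) for Tcf7 and -0.08 (95% interval -0.28 to 0.12) for Lef1. Ccr7 had 286, 308 and 279 normalized counts in libraries labelled Morrbid-/-, against 299, 301 and 268 in wild type. Its groups coincided, with a log2 change of 0.01 and a 95% interval of -0.21 to 0.23.

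Cdkn1b had 267, 329 and 276 normalized counts in libraries labelled Morrbid-/- without IFN-beta, against 352, 408 and 324 in wild type. Replicate 2 labelled Morrbid-/- lay just above the lowest wild-type library and the other 2 below it. The log2 change was -0.31 (SE 0.11, unadjusted p = 0.0112, limma adjusted p = 0.546), and 14.6% of all genes tested had a change at least as large in size. Klf2 averaged 525 ± 16 normalized counts in libraries labelled Morrbid-/- and 539 ± 33 in wild type, and Foxp1 1769 ± 56 and 1787 ± 75 (SD, n = 3 each). Satb1 averaged 2027 ± 205 in libraries labelled Morrbid-/- and 2176 ± 70 in wild type, and Bach2 1072 ± 111 and 1021 ± 37. The log2 changes of these 4 genes lay between -0.11 and 0.07, with adjusted p from 0.943 to 0.988.

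The genotype effect differed between the stimulations for 3 of the 8 genes, Cdkn1b, Lef1 and Tcf7, and in each the effect was higher with IFN-beta. This difference is the change with IFN-beta minus the change without it, from one limma fit of all 14 libraries, and it uses no level across the separately normalized tables. Over 9078 genes, 1.33% passed, 0.441% higher and 0.892% lower. The difference was 0.64 on the log2 scale for Cdkn1b (SE 0.16, adjusted p = 0.042), 0.60 for Lef1 (SE 0.13, adjusted p = 0.01) and 0.52 for Tcf7 (SE 0.11, adjusted p = 0.0102). Ccr7, at 0.50 (SE 0.13, adjusted p = 0.051), lay just past the threshold.

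The remaining differences were 0.29 for Klf2 (95% interval 0.04 to 0.53, limma adjusted p = 0.304), 0.30 for Satb1 (0.07 to 0.53, adjusted p = 0.235), 0.03 for Bach2 (-0.23 to 0.28, adjusted p = 0.962) and 0.00 for Foxp1 (-0.20 to 0.21, adjusted p = 0.995). At an unadjusted p under 0.05 the count for the difference was 6 of the 8 genes, against 1090 of all 9078 genes tested. For Bach2 and Foxp1 the intervals lie below the differences of Lef1 and Cdkn1b. Those of Klf2 and Satb1 span values close to 0 as well as the 0.52 of Tcf7.

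The sign itself turned for 5 of the 8 genes, Tcf7, Lef1, Klf2, Satb1 and Cdkn1b, whose fitted change was below 0 without IFN-beta and above 0 with it, except that Klf2 without IFN-beta was above 0 (0.015) when scaled to equal totals. That pattern held for 2158 of the 9078 genes (23.8%). Bach2 and Ccr7 were above 0 in both stimulations and Foxp1 below 0 in both (above 0 in both at equal totals or after quantile scaling), though all of these except Ccr7 with IFN-beta are changes near 0. No member passed the test in opposite directions in the 2 stimulations, which 14 genes (0.154%) did. Cdkn1b came nearest, at -0.31 without and 0.32 with IFN-beta, but the change without IFN-beta did not pass after adjustment. For Tcf7, Lef1, Klf2 and Satb1 the intervals without IFN-beta all included 0, and no opposite effect was detected for them.

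**Figure D2:**
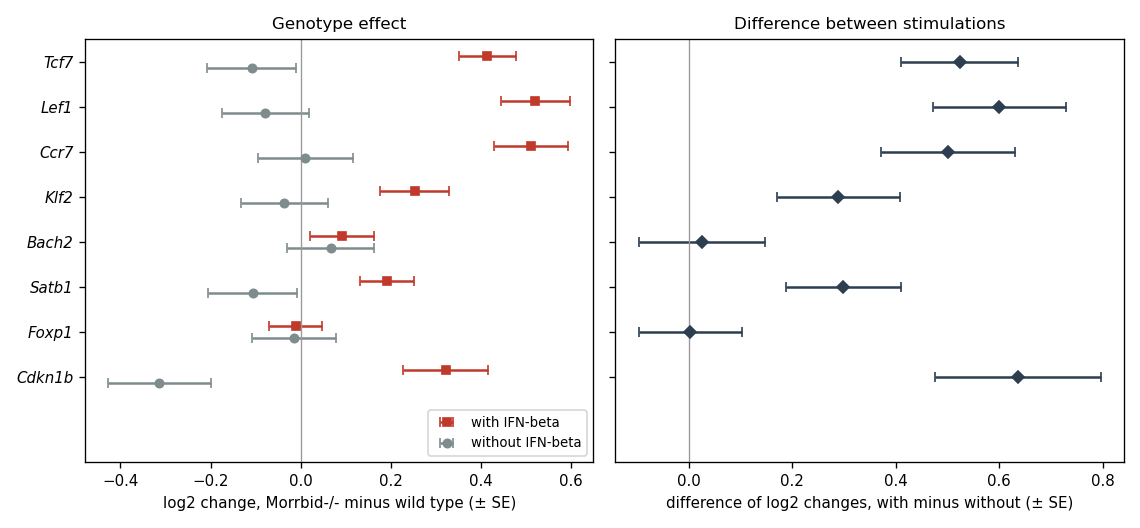
Left, log2 change between cells labelled Morrbid-/- and wild type (x axis, ± SE) of each gene with IFN-beta (red squares) and without it (grey circles). Right, the difference of those changes, with minus without (± SE), which reaches 0.64 for Cdkn1b, 0.60 for Lef1 and 0.52 for Tcf7 and is near 0 for Bach2 and Foxp1.

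**Figure D3:**
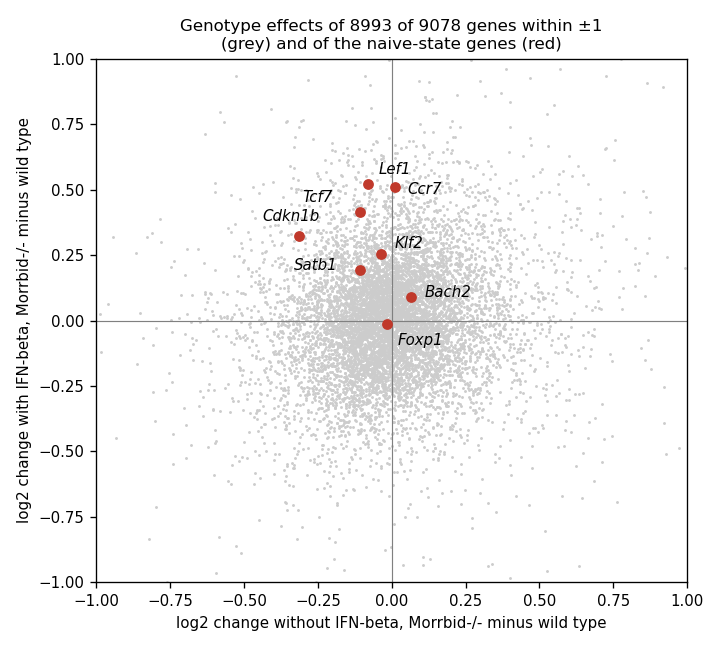
Log2 change without IFN-beta (x axis) against log2 change with it (y axis), labelled Morrbid-/- minus wild type, for 8993 of 9078 genes within the limits of the axes (grey) and for the 8 members (red). Of the members, 5 lie at the upper left, lower without and higher with IFN-beta, where 23.8% of all genes lie.

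The difference for Cdkn1b was the least stable of the 3. It was lost without replicate 1 or 3 labelled Morrbid-/- of the cultures without IFN-beta (adjusted p = 0.0996 and 0.0901), and without replicate 2, 3 or 4 labelled Morrbid-/- of those with it (0.0773, 0.0984 and 0.107). Among wild-type libraries it was lost without replicate 1 or 2 lacking IFN-beta (0.0552 and 0.119) and without replicate 1, 3 or 4 given it (0.0869, 0.0925 and 0.0645). The differences of Tcf7 and Lef1 held when any 1 of the 14 libraries was left out, with a highest adjusted p of 0.0409 and 0.0473. Ccr7 passed without wild-type replicate 3 of the cultures without IFN-beta (adjusted p = 0.032), without replicate 2 labelled Morrbid-/- with IFN-beta (0.0172) and without wild-type replicate 4 with IFN-beta (0.0285). It also passed with a pseudocount of 5 (0.0457), a mean of at least 50 (0.0443), by DESeq2 (0.0489) and with the 16S share as a covariate (0.0479). With the 12S share as a covariate no difference passed, at 0.50 for Tcf7 (adjusted p = 0.0895), 0.37 for Lef1 (0.263) and 0.44 for Cdkn1b (0.475).

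**Figure D4:**
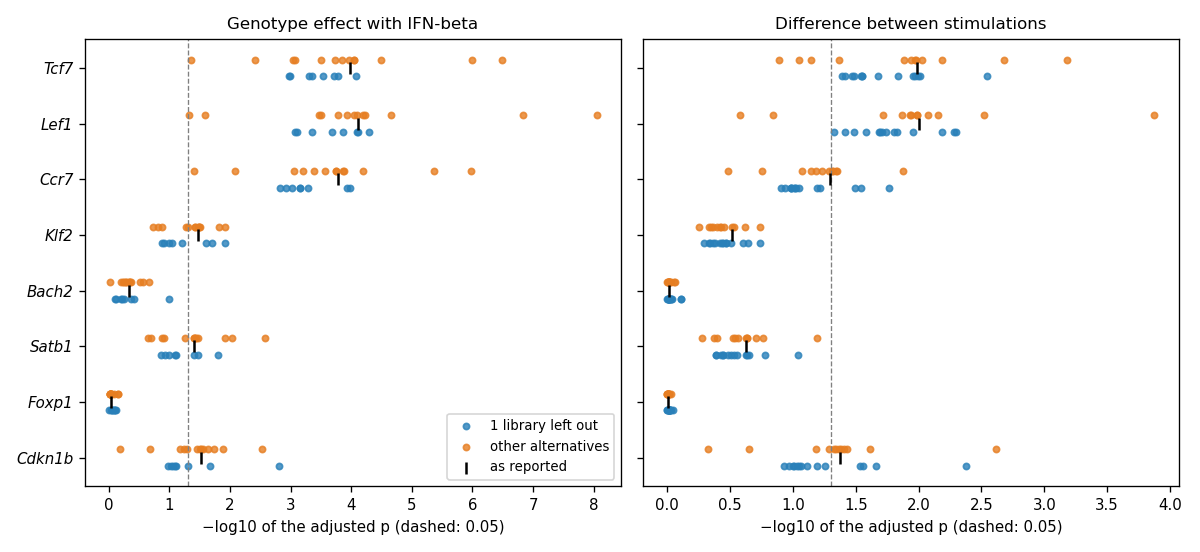
Adjusted p of each gene (x axis, -log10, so that values to the right of the dashed line at 0.05 pass) as reported (black), with 1 library left out (blue) and under the other alternatives (orange), for the effect with IFN-beta (left) and the difference between stimulations (right). With IFN-beta the points of Tcf7, Lef1 and Ccr7 all pass, and those of Klf2, Satb1 and Cdkn1b fall on both sides of the line.

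Within a group the members can be ranked by level per kilobase of exon. The length used is that of all annotated exons of a gene, merged over its transcripts. It was 2625 bases for Tcf7 and 1847 for Klf2, against 19027 for Satb1 and 13751 for Foxp1. The order depends on this length. By normalized counts alone Satb1 was above Tcf7, at 7608 against 3632 in cells labelled Morrbid-/- with IFN-beta. On that scale Tcf7 was highest in all 4 groups, at 1384 ± 110 normalized counts per kilobase in cells labelled Morrbid-/- with IFN-beta and 1038 ± 74 in wild type with IFN-beta (SD, n = 4 each). Klf2 was second and Cdkn1b lowest in every group. Ccr7 ranked next after Klf2 in cells labelled Morrbid-/- with IFN-beta, at 405 ± 41 per kilobase, and after Satb1 and Foxp1 in wild type, at 284 ± 26. In cells labelled Morrbid-/- with IFN-beta, neighbours in the order Ccr7, Satb1, Lef1, Foxp1 and Bach2 had overlapping ranges and are not resolved from each other. Ccr7 and Satb1 still lay wholly above Foxp1 and Bach2. In wild type with IFN-beta, neighbours in the order Foxp1, Ccr7, Bach2 and Lef1 had overlapping ranges as well. Lef1 was at 312 ± 44 per kilobase in cells labelled Morrbid-/- with IFN-beta and at 216 ± 18 in wild type.

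The genes whose levels followed each member most closely were found over all 14 libraries, by the root mean square difference of log2 levels centred on wild type within each table. Tcf7 was followed most closely by Arid1a, a subunit of the BAF chromatin remodeller, at a difference of 0.0839, and by Strn at 0.084, where the median of 5620 genes was 0.288. Lef1 was followed closely by Wbp11, a splicing factor, at 0.105 (median 0.34). Ccr7 was followed by Fmnl1 at 0.119 and Rnf44 at 0.121 (median 0.328), and Cdkn1b by Zadh2 at 0.111 and Psip1 at 0.118 (median 0.314). Closest to Klf2 were Slk at 0.0739 and Uck2 at 0.0825, to Satb1 Git2 at 0.0601 and Kmt2e at 0.0611, to Bach2 Wnk1 at 0.0557 and Patl1 at 0.0572, and to Foxp1 Rsbn1l at 0.0493 and Mycbp2 at 0.0582. None of the members was among the closest to another, and the libraries are shared by all these comparisons.

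Among 92 measured genes that act beside the members, 10 rose and 2 fell with IFN-beta (13%, against 10.1% of all genes tested). In the list of naive-cell surface genes 0 of 10 rose and 2 fell, Il6ra and Il6st, the chains of the IL-6 receptor. Il6ra averaged 278 ± 22 normalized counts in libraries labelled Morrbid-/- and 347 ± 25 in wild type (log2 change -0.32, limma adjusted p = 0.0187). Il6st averaged 4071 ± 481 in libraries labelled Morrbid-/- and 4807 ± 234 in wild type (log2 change -0.25, adjusted p = 0.0211). The groups of neither gene overlapped. Il6ra lost its call without replicate 2 or 4 labelled Morrbid-/- or wild-type replicate 1 (adjusted p = 0.0526, 0.0583 and 0.0724), and Il6st without replicate 3 or 4 labelled Morrbid-/- or wild-type replicate 1 or 3 (0.0732, 0.0748, 0.0653 and 0.0589). With the 12S share as a covariate Il6ra was at -0.26 (adjusted p = 0.252) and Il6st at -0.10 (adjusted p = 0.598), and without limma's trend their adjusted p was 0.0855 and 0.198. The list's median log2 change was -0.13, on the other side of 0 from the 0.29 of the 8 genes.

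Among 20 measured regulators of quiescence, 3 rose and none fell, with a median log2 change of 0.01. Myb, a factor that preserves stem-like CD8 T cells, had 1211, 1066, 1023 and 1076 normalized counts in libraries labelled Morrbid-/- with IFN-beta, against 814, 763, 750 and 707 in wild type. Its groups lay far apart (log2 change 0.53, SE 0.07, limma adjusted p = 1.74e-05). Tob2, of the antiproliferative BTG/TOB family, averaged 223 ± 22 in libraries labelled Morrbid-/- and 146 ± 22 in wild type (log2 change 0.61, adjusted p = 9.61e-04). Klf3, a repressor related to KLF2, averaged 1352 ± 33 in libraries labelled Morrbid-/- and 1167 ± 95 in wild type (log2 change 0.22, adjusted p = 0.034). Klf3 was lost without replicate 1, 2 or 3 labelled Morrbid-/- (adjusted p = 0.082, 0.0833 and 0.0821) or wild-type replicate 1 or 2 (0.104 and 0.132). Without limma's trend Klf3 was lost as well (adjusted p = 0.164).

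Among 12 measured partners of TCF-1 and LEF-1, 1 rose and none fell, with a median log2 change of 0.07. The gene that rose was Axin2, a feedback inhibitor of Wnt signalling and a classic TCF/LEF target. Axin2 had 146, 129, 146 and 135 normalized counts in libraries labelled Morrbid-/- with IFN-beta, against 72.0, 92.2, 80.6 and 125 in wild type. Wild-type replicate 4 came close to the libraries labelled Morrbid-/- but stayed below them (log2 change 0.61, SE 0.14, limma adjusted p = 0.00712). Axin2 lost its call without the trend (adjusted p = 0.0803) and with the 12S share (0.157). Without IFN-beta Axin2 averaged 62.0 ± 13.8 in libraries labelled Morrbid-/- and 69.4 ± 9.6 in wild type (log2 change -0.18, adjusted p = 0.955). The difference between stimulations was 0.79 and did not pass (adjusted p = 0.127).

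Of 10 measured partners and targets of BACH2, 2 rose with IFN-beta and none fell, and both are AP-1 subunits. Junb averaged 529 ± 36 normalized counts in libraries labelled Morrbid-/- and 377 ± 62 in wild type (log2 change 0.50, limma adjusted p = 0.00109). Fosl2 averaged 458 ± 114 in libraries labelled Morrbid-/- and 334 ± 38 in wild type (log2 change 0.42, adjusted p = 0.0278), and was lost without replicate 1 or 2 labelled Morrbid-/- (0.122 and 0.116) or wild-type replicate 1 or 4 (0.0972 and 0.0607). Fosl2 was also lost without limma's trend (adjusted p = 0.21) and by DESeq2 (0.128). By DESeq2, 1 of the list rose and 1 fell. Of 5 measured relatives and cofactors of FOXP1 and SATB1, 2 rose and none fell. Foxp4, a paralogue of Foxp1, averaged 188 ± 9 in libraries labelled Morrbid-/- and 123 ± 9 in wild type (log2 change 0.61, adjusted p = 4.34e-04). Smarca4, the ATPase of the BAF remodeller, averaged 1118 ± 83 in libraries labelled Morrbid-/- and 876 ± 43 in wild type (log2 change 0.35, adjusted p = 0.00131). Without the trend and with the 12S share the calls were lost for Junb (adjusted p = 0.0633 and 0.069) and Smarca4 (0.0539 and 0.0688).

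The partners of p27 and the signalling genes of CCR7 gave no call with IFN-beta by limma, edgeR or DESeq2. Of 13 measured cyclins, kinases, inhibitors and ubiquitin-ligase parts, 1 had an unadjusted p under 0.05, Cdkn2d, the gene of the inhibitor p19, at a log2 change of 0.55 (limma adjusted p = 0.0843). Ccnd2, the gene of cyclin D2, was at -0.12 (adjusted p = 0.264). Of 7 measured CCR7 signalling genes, 5 had an unadjusted p under 0.05, in both directions. Of all 9964 genes tested with IFN-beta, 2434 had such a p. Gnai2, a G protein subunit, was at 0.17 (adjusted p = 0.11) and Rgs2, a G protein regulator, at 0.51 (adjusted p = 0.112). Of 15 measured early activation genes 2 rose and none fell, Bhlhe40 (log2 change 1.28, adjusted p = 1.18e-04) and Nr4a2 (log2 change 0.49, adjusted p = 0.0116). Nr4a2 lost its call without replicate 2 labelled Morrbid-/- (adjusted p = 0.0762), without limma's trend (0.15) and with the 16S share as a covariate (0.0802).

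**Figure D5:**
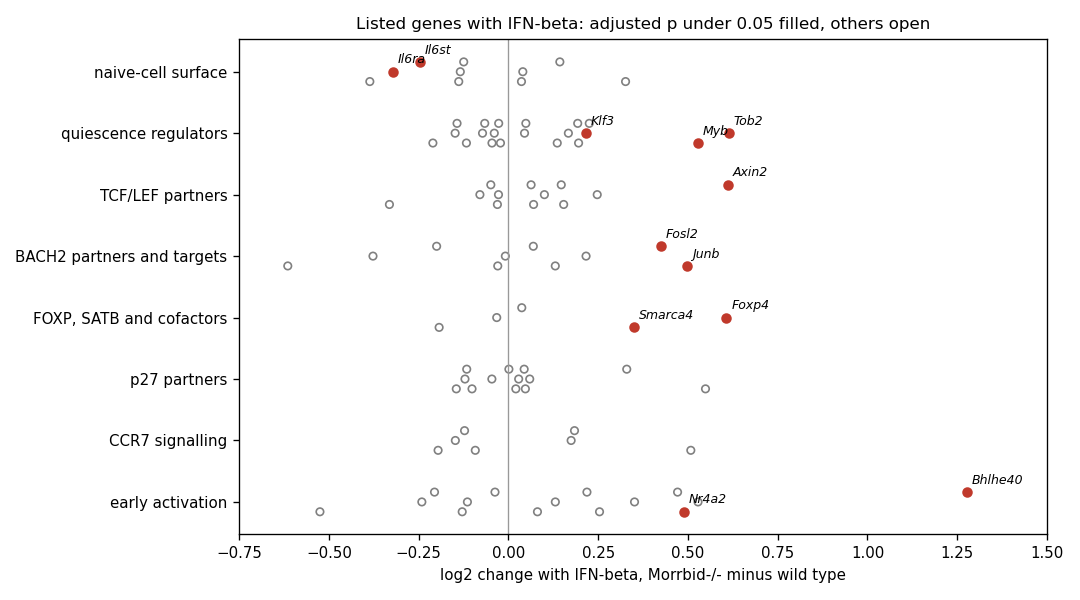
Log2 change with IFN-beta (x axis, labelled Morrbid-/- minus wild type) of every measured gene in the 8 lists (rows), with genes at an adjusted p under 0.05 filled and named. The calls are few, lie mostly to the right of 0, and in the naive-cell surface list lie to the left.

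Without IFN-beta the same lists gave 2 calls among 90 measured genes (2.22%, against 0.635% of all genes tested). These were Il12rb2 among the BACH2 partners and targets and Eomes among the early activation genes. Il12rb2, a receptor chain for IL-12, averaged 55.0 ± 1.3 normalized counts in libraries labelled Morrbid-/- and 15.4 ± 9.0 in wild type (log2 change 1.98, limma adjusted p = 0.00175), a call lost without the trend (adjusted p = 0.324). Eomes, an effector and memory factor, averaged 92.8 ± 7.8 in libraries labelled Morrbid-/- and 52.2 ± 11.8 in wild type (log2 change 0.84, adjusted p = 0.0223). Eomes was lost without replicate 1, 2 or 3 labelled Morrbid-/- (adjusted p = 0.0585, 0.0785 and 0.122) or wild-type replicate 2 (0.197). Without the trend Eomes was lost too (adjusted p = 0.297). In the other 6 lists limma, edgeR and DESeq2 called nothing, with 2 of 9 naive-cell surface genes (S1pr1 at -0.31 and Il7r at -0.30) and 1 of 12 p27 partners (Ccnd2 at 0.29) at an unadjusted p under 0.05. Of all genes tested without IFN-beta, 567 of 9290 had such a p by limma. By DESeq2, Eomes was not called. The smallest p in the remaining lists belonged to Klf3 at -0.22 and Myb at 0.19 among regulators of quiescence, Ctnnb1 at -0.12 and Axin2 at -0.18 among TCF and LEF partners, Hdac2 at -0.17 and Foxp4 at 0.26 among FOXP1 and SATB1 relatives, and Grk6 and Arrb2, both at -0.20, among CCR7 signalling genes.

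The difference between stimulations passed for 2 of 89 listed genes by limma (2.25%, against 1.33% of all genes tested). Tob2 had a difference of 0.76 (SE 0.19, adjusted p = 0.032), with 96.2 ± 14.3 normalized counts in libraries labelled Morrbid-/- and 106 ± 5 in wild type without IFN-beta. It was lost in 8 of the 14 fits that left out 1 library, with a highest adjusted p of 0.136 without replicate 2 labelled Morrbid-/- of the cultures without IFN-beta. Il12rb2 had a difference of -2.01 (adjusted p = 0.00106), since its level with IFN-beta, 842 ± 97 in libraries labelled Morrbid-/- and 859 ± 91 in wild type, did not separate the genotypes. Without the trend neither difference passed (adjusted p = 0.108 for Tob2 and 0.0774 for Il12rb2). In the other 6 lists limma and edgeR called nothing, with 3 of 9 naive-cell surface genes, 5 of 15 early activation genes and 1 gene of each remaining list at an unadjusted p under 0.05 by limma. Of all genes tested for the difference, 1090 of 9078 had such a p by limma. DESeq2 called 1 p27 partner and 1 early activation gene lower. S1pr1 and Actn1 of the naive-cell surface list stood at 0.35 (adjusted p = 0.139) and 0.33 (adjusted p = 0.12).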

How the data were processed

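Strand-marked total RNA libraries (100 ng, read as pairs of 75 bases) were aligned and counted with Trimmomatic, STAR 2.5, featureCounts and DESeq2, per the submitters' processing notes, which name the builds GRCm38 and mm10. For the annotation and strand setting, nothing is given in the sources used here. The authors deposited DESeq2-normalized counts (unit: signal, counts divided by size factors), in 1 table per stimulation, normalized separately. Levels were therefore never compared across tables. Every value was a whole multiple, within 0.01, of what 1 read is worth, so reads were recovered (100% of values whole).

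The main test was limma 3.58.1 in R 4.3.3 with a trend on log2(normalized count + 1), for genes with a mean of at least 10, with Benjamini-Hochberg adjustment over all genes tested and a threshold of 0.05. The difference between stimulations was a contrast in 1 fit of all 14 libraries. A fold change on this scale understates the change of low genes. Alternatives were edgeR 4.0.16 (quasi-likelihood) and DESeq2 1.42.0 on recovered reads, other scalings, pseudocounts, filters and covariates, a replicate block, and each library left out. The fits were tested on simulated data. The members and lists were chosen with earlier results of these data known. The text names the 8 members, the listed genes that passed, those with the smallest p where none passed, and the 2 genes most like each member, of which 1, for Lef1, is not reported here.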

Additional observations from a re-analysis of the deposited data

Results flagged for a closer look

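Satb1 in cells labelled Morrbid-/- with IFN-beta had 1 library far from the other 3: replicate 3 had 6840 normalized counts and the others 7819 to 7901, so the gap was 0.923 of the group's range, past the limit of 0.829 for 4 libraries. Such a gap was looked for in 16 groups of 4, and chance marks about 1 in 20.

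The genotype effect (labelled Morrbid-/- over wild type) differed between the stimulations by the test of that difference for Tcf7 (0.52 on the log2 scale, with minus without IFN-beta), Lef1 (0.60), Cdkn1b (0.64), Tob2 (0.76) and Il12rb2 (-2.01).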

How the results depend on the processing

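With IFN-beta, 6 members were higher; the count was 3 without limma's trend, 3 with the 16S share and 3 with the 12S share as a covariate (the 12S covariate was chosen after seeing the data), 3 in 1 fit of all libraries, and 3 to 5 with 1 library left out. The difference between stimulations passed for 3 members, against 1 after quantile scaling, 0 without the trend, 0 with the 12S share, and 2 to 4 with 1 library left out; it was 4, with Ccr7, at a pseudocount of 5, a mean of at least 50, by DESeq2 and with the 16S share. Without IFN-beta no member passed under any of 19 alternatives. Over all genes, calls (higher and lower) without IFN-beta were 13 and 4 without the trend and 101 and 16 in 1 fit, against 50 and 9; with it 171 and 134 without the trend, 301 and 253 in 1 fit and 206 and 209 with the 12S share, against 523 and 482. With the 16S share 71 were higher and 32 lower without IFN-beta. Without replicate 2 labelled Morrbid-/- with IFN-beta the calls were 321 and 288. The difference gave 15 and 51 without the trend and 12 and 60 with the 12S share, against 40 and 81. The cause of these changes was not tested.

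Signs turned only for changes near 0. Without IFN-beta, Klf2 was 0.015 at equal totals and Foxp1 0.036 at equal totals and 0.025 after quantile scaling. With IFN-beta, Foxp1 was 0.029 at equal totals and 0.0047 after quantile scaling, Bach2 -0.011 with the 16S share and Ccnd2 0.038 with the 12S share. The difference for Foxp1 was -0.0078 at equal totals, -0.018 after quantile scaling, -0.0096 by edgeR, -0.023 by DESeq2, -0.027 with the 16S share and -0.051 with the 12S share, and for Bach2 -0.014 after quantile scaling, -0.014 by DESeq2 and -0.055 with the 16S share. With 1 library left out, values without IFN-beta ran from -0.043 to 0.039 for Ccr7, -0.045 to 0.016 for Foxp1, -0.017 to 0.12 for Bach2 and -0.083 to 0.0058 for Klf2, with IFN-beta from -0.040 to 0.030 for Foxp1, and the difference from -0.027 to 0.11 for Bach2 and -0.027 to 0.045 for Foxp1.

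Same-numbered libraries were not taken as pairs, since not every pair's deviations correlated above 0.1: they correlated at 0.204, -0.021 and 0.153 without IFN-beta and 0.0407, 0.0033, 0.0607 and 0.141 with it, against -0.2 to 0.0595 for different numbers. Of 7 libraries labelled Morrbid-/-, 5 correlated best with their own number, a hint from the data and not the design. With the replicate number as a block, 6 members were higher with IFN-beta and 4 differed between stimulations, and the calls over all genes were 94 higher and 75 lower without IFN-beta, 730 and 691 with it, and 148 and 163 for the difference.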
